A study of Arabidopsis thaliana with 12 samples.

Results

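The 39 nuclear genes for the light-harvesting antenna and for the subunits of both photosystems were followed in seedlings of *Arabidopsis thaliana*. They were chosen by locus name, not by their values, from the 34133 rows of the expression table, and all 39 were listed and tested, of 22645 rows tested in all. The set holds 17 antenna genes (*LHCA1* to *LHCA4* and 13 *LHCB* genes), 12 genes for photosystem I subunits (*PSA*) and 10 for photosystem II subunits (*PSB*).

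The study sequenced poly-A RNA from whole 10-day-old seedlings grown on MS agar under 16 h of light and 8 h of dark, at 23 °C by the labels and with a cooler night by the study's methods. There were 4 genotypes in the Columbia ecotype with 3 libraries each, the wild type (WT), the single mutants *brat1* and *nrpe1*, and the double mutant *brat1nrpe1*. BRAT1 is a bromodomain protein with an ATPase domain that acts against transcriptional silencing, and NRPE1 is the largest subunit of RNA polymerase V in RNA-directed DNA methylation (RdDM). Each mutation was represented by a T-DNA allele, each library came from pooled seedlings, and the labels do not say whether the 3 replicates of a genotype were grown apart, so the p-values measure only the spread between these libraries. Values are FPKM, fragments per kilobase of exon, scaled to the fragments mapped in the library, so levels of different genes can be set side by side. In bulk tissue, fewer green cells and less RNA per green cell cannot be told apart.

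Light is captured by chlorophyll bound to the LHC proteins. LHCA proteins surround photosystem I, while LHCB1, LHCB2 and LHCB3 form the trimeric antenna LHCII of photosystem II, and LHCB4, LHCB5 and LHCB6 link it to the core as single proteins. The reaction centre proteins are encoded in the chloroplast, whereas the antenna and many of the smaller subunits are made from nuclear genes and imported. Transcripts of these nuclear genes are abundant in green seedlings and are known to depend on light and on the circadian clock. Of the 133 rows with chloroplast locus names, 0 had a value above 0 in any library, so the chloroplast-encoded partners were not analysed here.

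Many members have close copies, and this bears on their values because the authors kept uniquely mapped reads. *LHCB1.1*, *LHCB1.2* and *LHCB1.3* are neighbours, each with 1 exon and a coding sequence of 804 bases, at chr1:10474656-10475969 (minus strand), chr1:10472280-10473502 (minus strand) and chr1:10477885-10479114 (plus strand) in TAIR10.1. Their coding sequences were 95.65% to 96.39% identical. The first 90 coding bases of the 3 copies are shown because the values of *LHCB1.3* behaved unlike those of any other member. Capitals mark bases that differ from *LHCB1.3* (sequence from RefSeq, TAIR10.1, 5′ to 3′ on the coding strand).
LHCB1.1: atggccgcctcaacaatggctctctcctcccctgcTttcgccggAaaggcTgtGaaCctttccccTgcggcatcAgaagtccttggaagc
LHCB1.2: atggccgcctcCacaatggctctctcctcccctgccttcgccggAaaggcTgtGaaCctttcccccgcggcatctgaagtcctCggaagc
LHCB1.3: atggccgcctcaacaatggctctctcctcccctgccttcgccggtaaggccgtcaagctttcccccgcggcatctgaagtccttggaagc
*LHCB1.1* differed from *LHCB1.3* at 7 of these 90 bases and at 31 over the whole coding sequence, and *LHCB1.2* differed at 6 and 29. The longest coding stretch without a difference was 119 bases between *LHCB1.1* and *LHCB1.3* and 74 bases between *LHCB1.2* and *LHCB1.3*. In 31 of the 39 members, each stretch of 50 transcript bases occurred in no other gene's transcript and nowhere else in the genome. Transcripts of genes that overlap a member were left aside in this count. In the other 8 (the 5 *LHCB1* genes, *LHCB2.1*, *LHCB2.2* and *LHCA2*) the share ranged down to 71.9%, the value of *LHCB2.2*. Reads that lie within shared stretches would not map uniquely, so the levels of these 8 genes are uncertain. In addition, exons of 16 members overlap another annotated gene, mostly on the opposite strand, and strand was not stated to be used in counting, so reads of the partners cannot be told apart there.

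The members were among the most abundant transcripts of the seedlings. Mean FPKM over the 12 libraries ranged from 815 for *PSAE2* to 10721 for *LHCB1.3*, a mean that counts 4 values listed at 0 (16082 over the other 8 libraries), and 38 of the 39 ranked among the highest 100 rows, 7 of them among the highest 10. Together they held 14.78% of the summed FPKM on average. The share was 13.3% to 14.3% in the 4 libraries of replicate 1 and 15.0% to 15.5% in the 8 libraries of replicates 2 and 3, but the zeros of *LHCB1.3* are counted in it. Without the *LHCB1* genes the share was 10.72% to 11.12% and 10.55% to 10.96%, and the ranges overlapped.

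The replicate number divided the libraries more strongly than genotype did, and it is described before the genotypes. Values were compared as log2(FPKM + 0.1), and the term log2 difference always refers to that scale. Replicates 2 and 3 of the same genotype differed by a median of 0.0164 to 0.0451 log2 units over the members. Replicate 1 differed from their mean by a median of 0.415 to 0.496. Over the 1431 rows with a mean of at least 100 FPKM that median was 0.448 to 0.451. The study's read summary gives replicate 1 as the most deeply sequenced, but FPKM carries no counts, so it could not be tested whether replicates 2 and 3 differed beyond sampling noise. The targeted genes followed the labels. *BRAT1* had 11.2 ± 0.222 FPKM in WT libraries but 3.18 ± 0.244 in those of *brat1* (SD over 3 libraries). *NRPE1* had 4.44 ± 0.497 FPKM in WT libraries but 1.34 ± 0.0657 in those of *nrpe1*, and the double mutant was low in both (2.86 ± 0.23 and 1.07 ± 0.0455).

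*LHCB1.3* (AT1G29930), which encodes a main LHCII protein, was listed at exactly 0 in all 4 libraries of replicate 1. In replicates 2 and 3 the wild type had 16312 and 15964 FPKM, *brat1* had 16453 and 16310, *nrpe1* had 16130 and 16199, and *brat1nrpe1* had 15416 and 15869. It was the highest row of the table by the mean of replicates 2 and 3. It was also the only row at 0 in all libraries of replicate 1 with at least 10 FPKM in all others, while its neighbours *LHCB1.1* and *LHCB1.2* had 3767 to 4426 and 5833 to 7441 FPKM in replicate 1. The zeros were treated as failed estimates and taken as missing, and the gene is compared only within replicates 2 and 3. The sum of the *LHCB1* genes was 25150 to 30413 FPKM in replicate 1 and 38501 to 41362 in the others. Without *LHCB1.3* the second range became 23085 to 25163, and replicate 1 then ranked higher on average, 27281 against 24137.

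**Figure D1:**
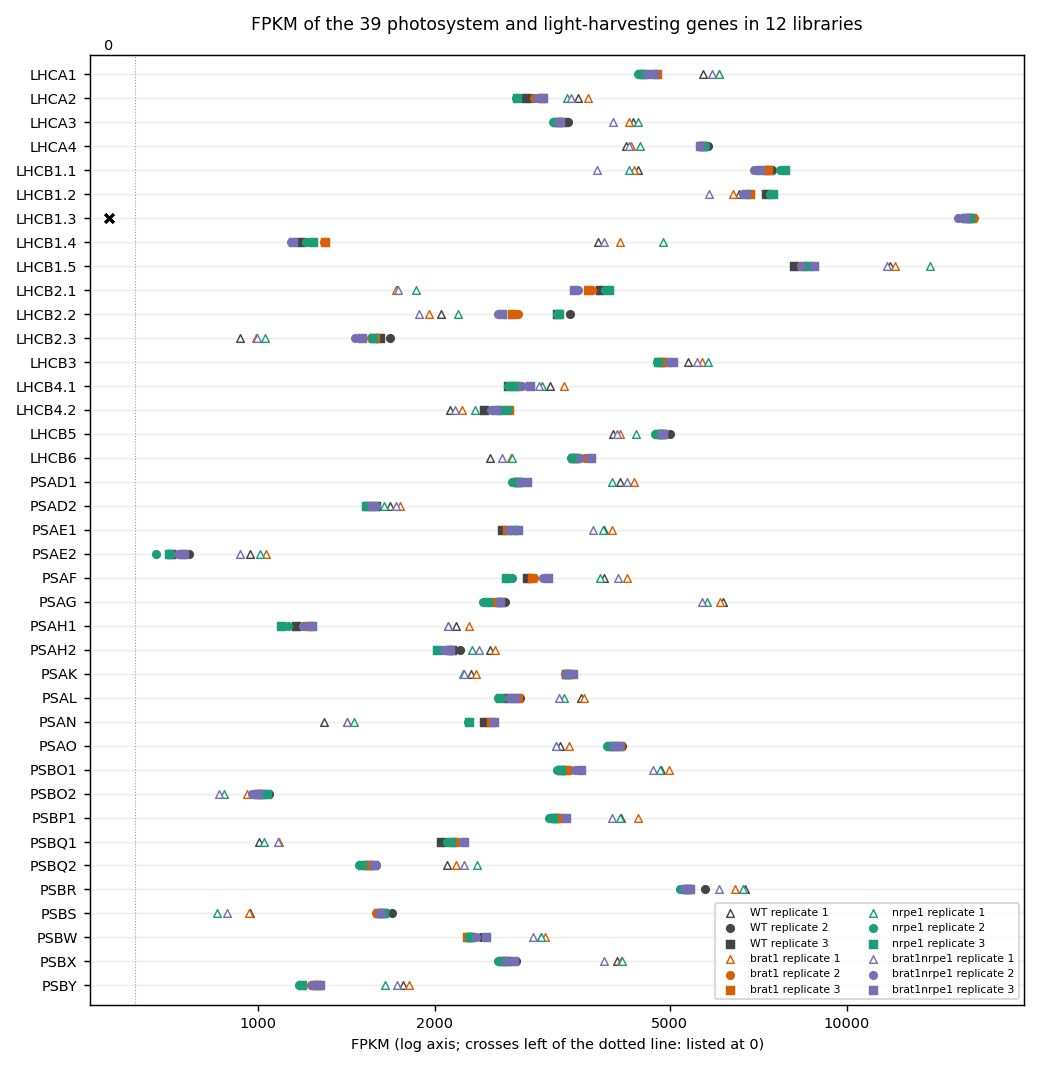
FPKM of each of the 39 members in 12 libraries on a log axis, with genotype by colour and replicate number by symbol (open triangles, replicate 1). The 4 crosses mark *LHCB1.3*, listed at 0 in replicate 1 and between 15416 and 16453 in the other 8 libraries, and in most rows the open triangles lie apart from the filled symbols.

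Within the antenna of photosystem I, *LHCA4* had the highest mean, 5240 FPKM, followed by *LHCA1* at 5045, *LHCA3* at 3589 and *LHCA2* at 3097. The order of the leading pair depended on the replicate. *LHCA4* had 4219 to 4448 FPKM (median 4277) in replicate 1 and 5636 to 5809 (median 5712) in the others, and *LHCA1* had 5695 to 6074 (median 5988) and 4425 to 4754 (median 4598). The 2 genes changed places without overlap, while *LHCA2* stayed below *LHCA3* in both sets, at 3346 to 3642 against 4002 to 4419 and at 2746 to 3050 against 3177 to 3366.

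Within LHCII, *LHCB1.5* was the most abundant member with a value in every library (mean 9754 FPKM), followed by *LHCB1.2* (6908), *LHCB1.1* (6325), *LHCB3* (5139), *LHCB2.1* (3072.2), *LHCB2.2* (2648), *LHCB1.4* (2199) and *LHCB2.3* (1375). This order is that of means over all libraries, and it did not hold in each replicate set. In replicate 1 *LHCB1.4* (3784 to 4869) was above *LHCB2.1* and *LHCB2.2*, and *LHCB3* (5381 to 5815) was above *LHCB1.1* (3767 to 4426). In replicates 2 and 3 *LHCB1.4* (1139 to 1303) was below *LHCB2.3*, and *LHCB1.1* had a higher mean than *LHCB1.2* (7384 against 7082). *LHCB2* proteins are the LHCII members best known for the phosphorylation that moves antenna between the photosystems. *LHCB2.3* was the lowest of its family in each set, with 933 to 1028 FPKM in replicate 1 and 1464 to 1679 in the others. Among the linker antenna, *LHCB5* (4614) was above *LHCB6* (3211), *LHCB4.1* (2874) and *LHCB4.2* (2447). The *LHCB4* pair summed to 5162 to 5536 FPKM in replicate 1 and 5082 to 5438 in the others, so the sums overlapped between the sets.

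Among photosystem I subunits, *PSAO*, a small subunit near the LHCII docking side, had the highest mean over all libraries (3779 FPKM). It had 3203 to 3375 in replicate 1, where *PSAG*, *PSAD1*, *PSAF*, *PSAE1* and *PSAL* had higher means, and 3915 to 4151 in the others. *PSAG* (3670), which helps to bind the LHCA belt, *PSAF* (3261) and *PSAN* (2092), which serve plastocyanin docking, *PSAD1* (3243) and *PSAE1* (3078), which serve ferredoxin docking, and *PSAK* (3003), *PSAL* (2931) and *PSAH2* (2206) followed. The second copies were lower, with *PSAD2* at 1601, *PSAH1* at 1509 and *PSAE2* at 815. *PSAE2* had the lowest mean of all members over the 12 libraries, at 933 to 1033 in replicate 1 and 673 to 765 in the others, although *PSBO2* and *PSBS* had lower means in replicate 1.

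Among photosystem II subunits, *PSBR*, a subunit beside the oxygen-evolving complex, was highest (mean 5752 FPKM, 6064 to 6706 in replicate 1 and 5217 to 5739 in the others). The extrinsic proteins that stabilise the oxygen-evolving centre followed with *PSBO1* at 3847 and *PSBP1* at 3551, then the small membrane subunits *PSBX* (3113) and *PSBW* (2555), the extrinsic *PSBQ1* (1780) and *PSBQ2* (1768), the membrane protein *PSBY* (1404) and *PSBS* (1389), which triggers the harmless release of excess light energy as heat. *PSBO2* was lowest at 980 FPKM, with 860 to 983 in replicate 1 and 979 to 1044 in the others, ranges that touched. The means of *PSBQ1* and *PSBQ2* were close although the pair exchanged order between the replicate sets.

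Each of the 38 members with a value in replicate 1 differed from replicates 2 and 3 in the limma fit with genotype as a covariate, 15 lower and 23 higher at an adjusted p under 0.05. Of all rows, 33.6% were lower and 35.5% higher. The share of members called was thus above a background that was itself most of the table, but that background includes rows of low FPKM. In size, replicate 1 stood apart from the others by a similar median in members and in abundant rows, as given above. The 4 libraries of replicate 1 did not overlap the other 8 for 13 lower and 23 higher members, beside 24.7% and 25.7% of all rows. The median over the 38 members was 0.23 on the log2 scale, beside 0.023 over all rows. Lower values were found for 9 of the 16 testable antenna genes, 3 of 12 *PSA* and 3 of 10 *PSB* genes, and higher values for 7, 9 and 7.

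The lowest values relative to the others were those of *LHCB2.1* (AT2G05100). In the order WT, *brat1*, *nrpe1* and *brat1nrpe1*, its FPKM in replicate 1 was 1728, 1715, 1856 and 1729, beside 3441 to 3941 (median 3752) in the 8 other libraries. Replicate 1 was thus lower in every genotype, by a log2 difference of -1.09 ± 0.0256 (SE) with a limma adjusted p of 2.31e-11. *LHCB2.2* (log2 difference -0.55) and *LHCB2.3* (-0.67) were lower as well.

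*PSBQ1* (AT4G21280), an extrinsic protein of the oxygen-evolving complex, had 1007, 1089, 1027 and 1084 FPKM in replicate 1 and 2047 to 2239 (median 2141) in the others (log2 difference -1.03 ± 0.018, limma adjusted p = 2.79e-12). Its paralogue *PSBQ2* went the other way, with 2092 to 2354 in replicate 1 and 1488 to 1590 in the others (0.52 ± 0.0315). The ratio of *PSBQ2* to *PSBQ1* within a library was 1.99 to 2.29 in replicate 1 and 0.700 to 0.766 in the others, so the pair reversed its order. *LHCB2.1* and *LHCB2.2* also reversed, with a ratio of 0.844 to 0.922 in replicate 1 and 1.16 to 1.36 in the others.

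The largest difference upward was that of *LHCB1.4* (AT2G34430), with 3784, 4119, 4869 and 3867 FPKM in replicate 1 and 1139 to 1303 (median 1218) in the others, 3.40-fold higher (log2 difference 1.77 ± 0.0455, limma adjusted p = 4.58e-11). *PSAG* (AT1G55670) had 6151, 6096, 5779 and 5666 in replicate 1 and 2413 to 2627 (median 2568) in the others, 2.33-fold higher. These 4 genes, *LHCB2.1*, *PSBQ1*, *LHCB1.4* and *PSAG*, were the members past a log2 difference of 1 in either direction with an unadjusted p under 0.01, limits that 5.36% (lower) and 7.17% (higher) of all rows passed. *LHCB1.4* shares a coding stretch of 122 bases with *LHCB1.5*, the longest of any *LHCB1* pair, and 86.3% of its stretches of 50 bases occurred nowhere else. *PSAG* overlaps an annotated gene on the opposite strand that was not analysed here.

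The other members past 1.5-fold were *PSBS* (log2 difference -0.82), *LHCB1.1* (-0.81), *PSAN* (-0.80) and *LHCB2.3* on the lower side and *PSAH1* (0.88), *PSBX* (0.62) and *PSAD1* (0.59) on the higher, 11 members in all. *PSBS* had 853 to 973 FPKM (median 927) in replicate 1 and 1585 to 1688 (median 1616) in the others. Members of the same pair were mostly not equally changed. The ratio of *PSBO1* to *PSBO2* was 4.92 to 5.50 in replicate 1 and 3.15 to 3.53 in the others, that of *PSAD1* to *PSAD2* was 2.44 to 2.50 and 1.73 to 1.84, and that of *PSAH2* to *PSAH1* was 1.1 to 1.14 and 1.71 to 1.84. The *LHCB4.1* to *LHCB4.2* ratio was 1.3 to 1.49 and 0.998 to 1.14. Only the ratio of *PSAE1* to *PSAE2* overlapped between the sets, at 3.81 to 3.99 and 3.56 to 3.97.

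**Figure D2:**
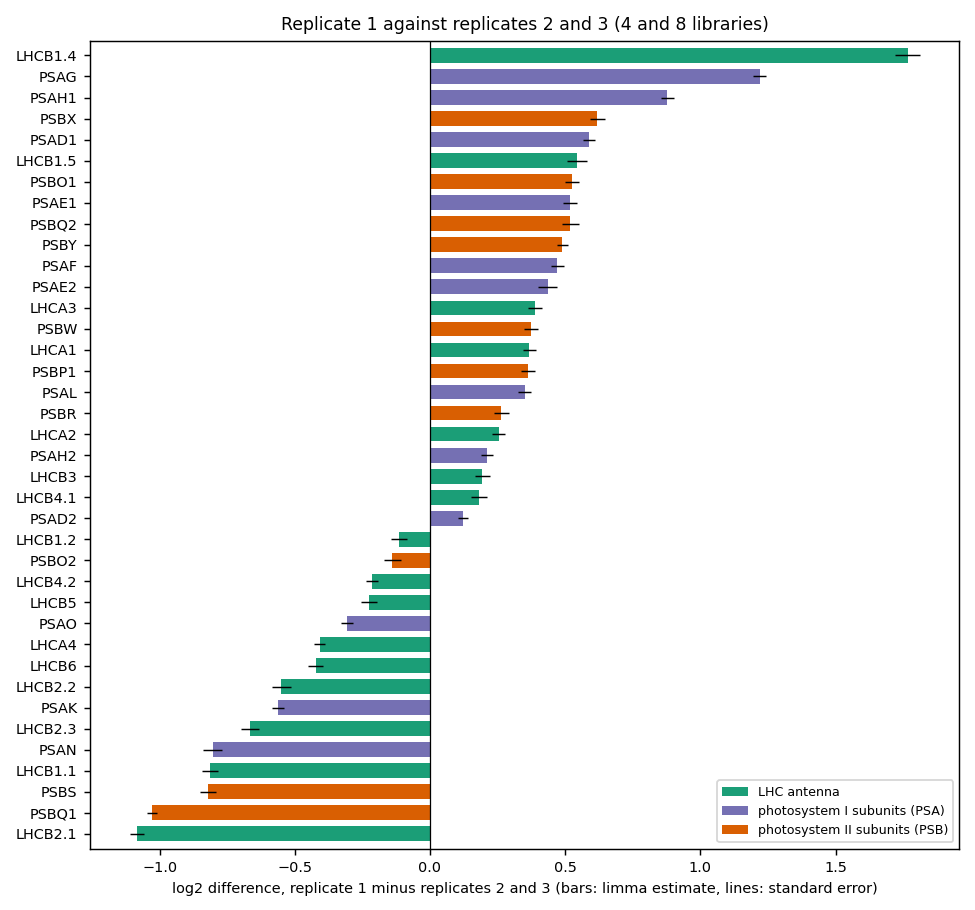
Difference of replicate 1 from replicates 2 and 3 for the 38 members with a value in replicate 1, as limma estimates on the log2 scale with standard errors. The bars run from -1.09 for *LHCB2.1* to 1.77 for *LHCB1.4*, with 15 members below 0 and 23 above, and paralogues such as *PSBQ1* and *PSBQ2* lie on opposite sides.

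Other genes of photosynthesis and light signalling are given beside the 33.6% of all rows that were lower and the 35.5% that were higher in replicate 1. Of the Calvin cycle genes, 10 of 12 were lower in replicate 1 and 2 higher, with a median log2 difference of -0.61. *RBCS1B*, a small subunit of Rubisco, had 414 to 597 FPKM in replicate 1 and 1899 to 2196 in the others. Of the further photosystem relatives and assembly factors, 13 of 18 were lower and 4 higher, and among them *PSBTN*, a small photosystem II subunit, had 4631 to 5363 FPKM in replicate 1 and 1802 to 1995 in the others. For electron carriers and ATP synthase the counts were 3 lower and 6 higher of 9, where *FNR2*, a ferredoxin-NADP reductase, had 764 to 831 and 239 to 267. Chlorophyll synthesis genes split into 7 lower and 4 higher of 16, together no more than the background, and *PORB*, which reduces protochlorophyllide in light, had 1663 to 1884 in replicate 1 and 195 to 215 in the others.

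Among regulators of light, plastid and clock responses, 11 of 15 were lower and 4 higher in replicate 1. The morning clock genes *CCA1* and *LHY* had 3.35 to 4.27 and 0.971 to 1.42 FPKM in replicate 1, beside 62.5 to 81.1 and 59.8 to 76.6 in the others. The evening gene *TOC1* had 68.9 to 95.5 beside 6.78 to 9.18, so the order of morning and evening genes was exchanged between the sets. Of 10 root markers, 1 was lower and 7 were higher in replicate 1, and their summed level was 1072 to 1618 FPKM in replicate 1 and 662 to 964 in the others, with 0 of the 10 listed at 0 in any library. Most of that sum was *PYK10*. The part of clock genes, root tissue or depth in the members' differences was not tested.

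The genotypes differed far less. In the fit of 4 genotype means, 0 of the 39 members had an adjusted p under 0.05 and 0 passed the limits of the study in *brat1* against the wild type, in *nrpe1* against the wild type, in *brat1nrpe1* against *nrpe1*, in *brat1nrpe1* against the wild type, and in the difference of the *brat1* effect between the 2 backgrounds. At an unadjusted limma p under 0.05 the count was also 0 in each. The limits of the study (log2 difference beyond 1, unadjusted p under 0.01) were passed by 0.195% of all rows on the lower and 0.195% on the higher side in *brat1*, by 0.186% and 0.479% in *nrpe1*, by 0.354% and 0.164% in *brat1nrpe1* against *nrpe1*, by 0.328% and 0.532% in *brat1nrpe1* against the wild type, and by 0.195% and 0.102% for the difference between backgrounds. Of all rows, 0.0399% were lower and 0.00886% higher in *brat1* at an adjusted p under 0.05, 0.0842% and 0.261% in *nrpe1*, 0.0975% and 0.0354% in *brat1nrpe1* against *nrpe1*, 0.146% and 0.151% in *brat1nrpe1* against the wild type, and 0.0177% and 0.00443% for the difference between backgrounds. The fit takes the replicate differences into its error, and most members differed by replicate number, as described.

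The median log2 difference over the members was 0.012 in *brat1*, with 16 below 0 and 23 above and a range from -0.21 to 0.11, beside 0.0023 over all rows. In *nrpe1* it was -0.023 (22 below, 17 above, -0.10 to 0.14), beside 0.0078. In *brat1nrpe1* against *nrpe1* it was 0.027 (15 below, 24 above, -0.29 to 0.17), beside 0.00, and against the wild type it was -0.013 (22 below, 17 above), beside 0.012. The comparisons share control libraries and are not independent of each other.

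Fitting the replicate number as a block removed the difference described above, since each number holds 1 library of each genotype. With the block, 0 members passed an adjusted p of 0.05 in *brat1* (background 0.483% lower, 0.678% higher) and 0 in *nrpe1* (0.594% and 0.957%). In *brat1nrpe1* against *nrpe1*, 2 antenna genes were lower and 1 photosystem I gene was higher (background 1.80% and 2.18%), and against the wild type 1 antenna gene was lower and 1 photosystem II gene higher (2.65% and 3.46%). The difference of the *brat1* effect between backgrounds was not past the threshold for any member (0.0621% and 0.0576%).

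*LHCB2.2* (AT2G05070), an LHCII protein, carried the largest of these differences. Its FPKM in replicates 1, 2 and 3 was 2047, 3390 and 3227 for WT, against 1953, 2763 and 2701 for *brat1*. In *nrpe1* it was 2190, 3222 and 3246, and in *brat1nrpe1* 1876, 2563 and 2598. Within each replicate number the 2 genotypes that carry *brat1* were below the 2 that do not, although the groups overlapped when the numbers were mixed. With the block the double mutant stood at -18.3% relative to *nrpe1* (log2 difference -0.29 ± 0.0482, limma adjusted p = 0.013) and at -17.7% relative to the wild type (-0.28, limma adjusted p = 0.0102), while *brat1* stood at -13.3% relative to the wild type without passing the threshold (-0.21, limma adjusted p = 0.0871). *nrpe1* differed from the wild type by 0.011. The 2 *brat1* effects differed by -0.086 (limma adjusted p = 0.829 with the block), so the gene was not shown to respond differently in the 2 backgrounds.

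*LHCB1.2* (AT1G29910) had 6570, 7442 and 7292 FPKM in WT, against 6400, 6804 and 6836 in *brat1*. It had 7441, 7400 and 7493 in *nrpe1* and 5833, 6651 and 6733 in *brat1nrpe1*, and these last 2 groups did not overlap. Non-overlap to the lower side was found for 2 members in this comparison (4.26% of all rows), the other being *LHCB1.3* over replicates 2 and 3 alone, and to the higher side for 0 (4.46%). With the block *LHCB1.2* was lower in *brat1nrpe1* than in *nrpe1*, with a change of -14.1% (log2 difference -0.22 ± 0.0434, limma adjusted p = 0.0254). In *brat1nrpe1* against the wild type, 1 member did not overlap on the lower side (*LHCB1.3*, 4.01% of all rows) and 0 on the higher (5.49%), and for each single mutant against the wild type 0 members did (3.18% and 3.76% of all rows for *brat1*, 2.43% and 3.82% for *nrpe1*).

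*LHCB2.1* and *LHCB1.1* had values on the same side without passing the threshold. *LHCB2.1* was at 1856, 3884 and 3941 FPKM in *nrpe1* and 1729, 3491 and 3441 in *brat1nrpe1* (log2 difference -0.15, limma adjusted p = 0.0537 with the block), and *LHCB1.1* at 4276, 7708 and 7836 and at 3767, 6941 and 7130 (-0.16, limma adjusted p = 0.0701). All 5 *LHCB1* and all 3 *LHCB2* genes had estimates below 0 in this comparison, with family medians of -0.16 and -0.15. In contrast, 11 of 12 *PSA* genes (median 0.044) and 8 of 10 *PSB* genes (median 0.029) had estimates above 0. Of all 22575 rows, 11293 were below 0 and 11282 above. In replicate 1 alone, *PSBO1*, *PSBO2*, *PSBP1*, *PSBQ2*, *PSBR*, *PSBW* and *PSBX* were below 0, and the other *PSB* genes above. Likewise *PSAE1*, *PSAE2*, *PSAG*, *PSAL*, *PSAN* and *PSAO* were below 0 in replicate 1, and the other *PSA* genes above. In *nrpe1* against the wild type the signs of the estimates were opposite, with all 5 *LHCB1* and all 3 *LHCB2* genes above 0. The lowest of these estimates were 0.0024 in *LHCB1* and 0.0026 in *LHCB2*. In replicate 2 alone, all 3 *LHCB2* genes and *LHCB1.2*, *LHCB1.3* and *LHCB1.4* were below 0, and *LHCB1.1* and *LHCB1.5* above. By the estimates in *nrpe1*, 11 of 12 *PSA* and 8 of 10 *PSB* genes were below 0, beside 10667 of 22568 rows below and 11901 above. The *nrpe1* libraries enter both comparisons. In *brat1nrpe1* against the wild type, 4 of 5 *LHCB1*, 3 of 3 *LHCB2*, 7 of 12 *PSA* and 5 of 10 *PSB* genes were below 0. These families were described after their values were seen, and several *LHCB1* and *LHCB2* genes share stretches of sequence. All genes come from the same libraries, so the counts are not independent.

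*PSAF* (AT1G31330), the plastocyanin-docking subunit of photosystem I, had 3815, 2700 and 2644 FPKM in *nrpe1* and 4089, 3054 and 3114 in *brat1nrpe1*. It was higher in the double mutant within each replicate number, by 12.6% (log2 difference 0.17 ± 0.0352, limma adjusted p = 0.0296 with the block). *PSAF* values were 3869, 2884 and 2862 in WT libraries, beside 4238, 2941 and 2922 in *brat1*, and neither comparison with the wild type passed for *PSAF*. *PSBQ1* had 1007, 2077 and 2047 in WT, against 1084, 2227 and 2239 in *brat1nrpe1*, 8.09% higher (0.11 ± 0.0267, limma adjusted p = 0.0385 with the block).

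**Figure D3:**
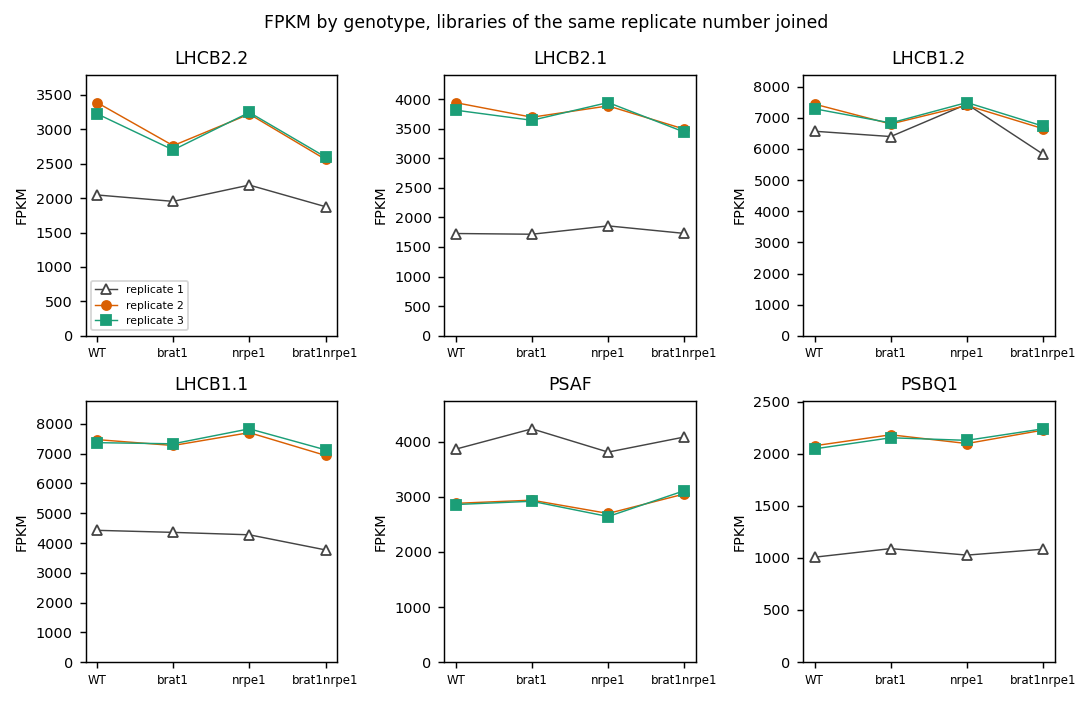
FPKM of *LHCB2.2*, *LHCB2.1*, *LHCB1.2*, *LHCB1.1*, *PSAF* and *PSBQ1* in the 4 genotypes, with libraries of the same replicate number joined by a line. Replicate 1 (open triangles) runs apart from replicates 2 and 3 in most panels, and in the panel of *LHCB2.2* each of the 3 lines is lower in *brat1* than in the wild type and lower in *brat1nrpe1* than in *nrpe1*.

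Counted within each replicate number, 8 of the 38 members were lower and 10 higher in *brat1* than in the wild type in all 3 replicates, 13 and 3 in *nrpe1*, 9 and 8 in *brat1nrpe1* against *nrpe1*, and 8 and 4 in *brat1nrpe1* against the wild type. Of all rows with a value in each library, 18.4% were lower and 19.8% higher in this way in *brat1*, 13.5% and 17.3% in *nrpe1*, 20.3% and 21.2% in *brat1nrpe1* against *nrpe1*, and 18.5% and 22.7% in the last comparison. The 13 in *nrpe1* were *LHCA2* and 12 subunit genes of the photosystems. Some of the 13 differed very little in *nrpe1*, as *PSBW* did with log2 differences of -0.00052, -0.065 and -0.00092 in replicates 1, 2 and 3. *PSBY* had the lowest estimate there, with 1767, 1278 and 1263 FPKM in WT, against 1647, 1174 and 1190 in *nrpe1* (log2 difference -0.10), without passing the threshold in either fit.

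Leaving out replicate 1 raised the counts, and the error then came from the close pairs of replicates 2 and 3 alone. Without it, 3 members passed in *brat1* (*LHCB1.2* and *LHCB2.2* lower, *LHCB4.2* higher, background 1.39% lower and 1.84% higher) and 5 in *nrpe1*, all lower (*PSAF*, *PSAG*, *PSAH2*, *PSAN* and *PSBY*, 3.29% and 4.05%). In *brat1nrpe1* against *nrpe1* it was 15, with *LHCB1.1*, *LHCB1.2*, *LHCB1.4*, *LHCB2.1* and *LHCB2.2* lower and *LHCA2*, *PSAF*, *PSAG*, *PSAH1*, *PSAN*, *PSBO1*, *PSBP1*, *PSBQ1*, *PSBQ2* and *PSBY* higher (5.28% and 5.58%). Against the wild type 7 passed (*LHCB1.1*, *LHCB1.2*, *LHCB2.1*, *LHCB2.2* and *LHCB2.3* lower, *PSAF* and *PSBQ1* higher, 5.47% and 6.29%), and 4 passed for the difference between backgrounds (*LHCB1.4* and *LHCB4.2* lower, *PSAF* and *PSAN* higher, 1.74% and 1.43%). *LHCB2.2* had a log2 difference of -0.33 in *brat1nrpe1* against *nrpe1* in these libraries, beside -0.29 in all.

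**Figure D4:**
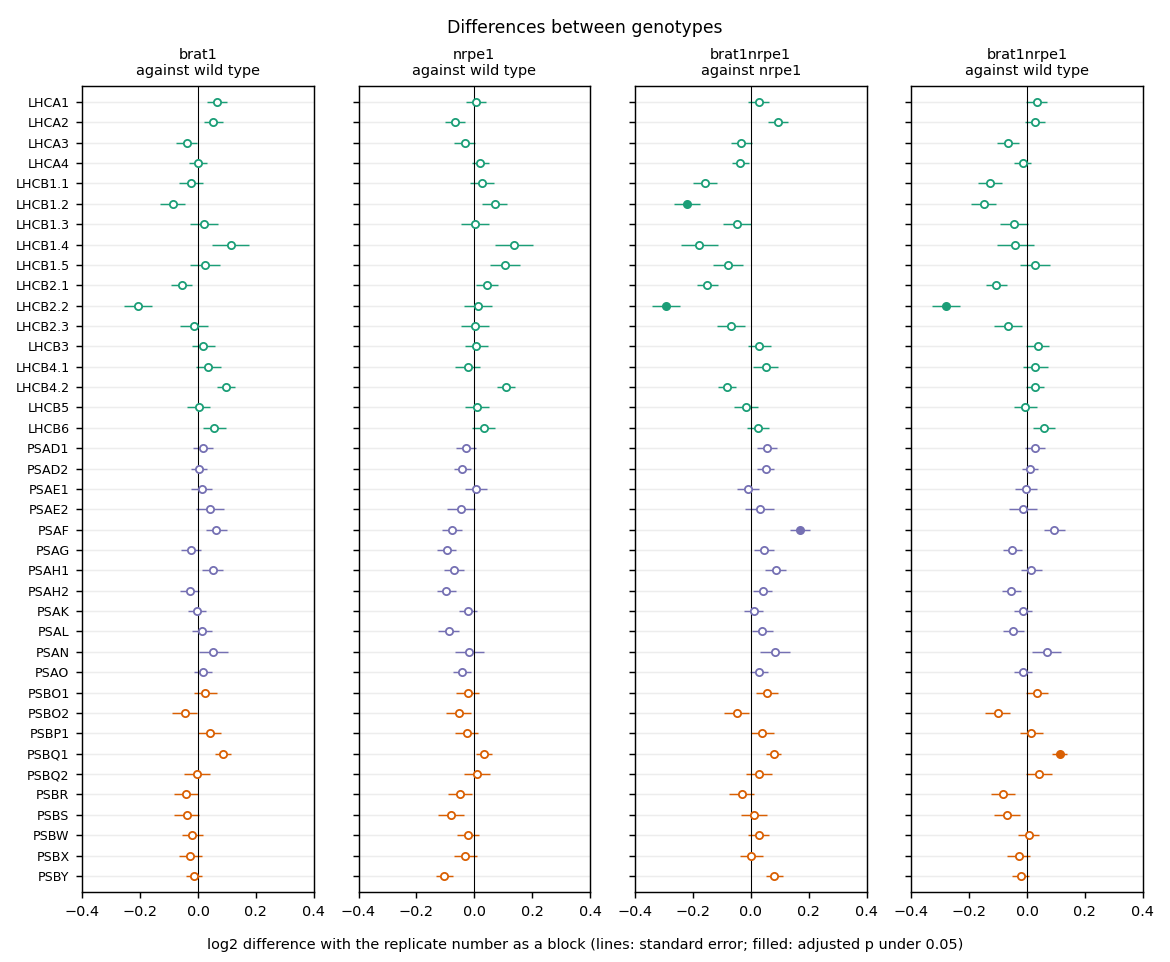
Log2 differences of the 39 members in the 4 comparisons between genotypes, from the fit with the replicate number as a block, with standard errors. Filled points, with an adjusted p under 0.05, are *LHCB2.2*, *LHCB1.2* and *PSAF* in *brat1nrpe1* against *nrpe1* and *LHCB2.2* and *PSBQ1* in *brat1nrpe1* against the wild type, and all points lie between -0.4 and 0.4.

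Among the other genes followed, 0 of the 70 genes of photosynthesis and its regulation passed an adjusted p of 0.05 in a genotype comparison without the block. With the block, 0 of the 70 were lower and 1 higher in *brat1*, 2 and 2 in *nrpe1*, 3 and 2 in *brat1nrpe1* against *nrpe1*, 7 and 3 against the wild type, and 1 and 0 for the difference between backgrounds. The shares of all rows with the block were 0.483% lower and 0.678% higher in *brat1*, and 0.594% and 0.957% in *nrpe1*. They were 1.80% and 2.18% in *brat1nrpe1* against *nrpe1*, 2.65% and 3.46% against the wild type, and 0.0621% and 0.0576% for the difference. The called gene with the largest difference between genotypes was *ELIP2*, an early light-induced protein related to the antenna, higher in *brat1nrpe1* than in *nrpe1* (log2 difference 1.09). *PORA*, a protochlorophyllide reductase known from dark-grown seedlings, was higher in *brat1* (log2 difference 0.50) and in *nrpe1* (0.92), and lower in *brat1nrpe1* than in *nrpe1* (-0.87). Its FPKM in replicates 1, 2 and 3 was 33.7, 7.65 and 6.62 in WT, against 59.2, 14.1 and 14.2 in *nrpe1*, so the groups overlapped only across replicate numbers. The root marker *PYK10*, a glucosidase of endoplasmic reticulum bodies, was higher with the block in every comparison of a mutant with the wild type and in *brat1nrpe1* against *nrpe1* (log2 difference 0.32), where 7 of the 10 root markers had estimates below 0 (median -0.09). The summed level of the 10 root markers was 662 to 1072 FPKM in the wild type, 788 to 1252 in *brat1*, 827 to 1237 in *nrpe1* and 955 to 1618 in *brat1nrpe1*. Without *PYK10* it was 122 to 214, 131 to 204, 146 to 212 and 135 to 233 in the same order. The part of root tissue in the members' differences was not tested.

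The regions just upstream of the *LHCB2* genes are shown because 2 of the 3 copies reversed their order between replicate sets and *LHCB2.2* carried the largest difference between genotypes. Each is the 200 bases before the annotated gene start (RefSeq, TAIR10.1, 5′ to 3′ on the gene's strand), at chr2:1824481-1824680 (minus strand) for *LHCB2.1*, chr2:1800473-1800672 (minus strand) for *LHCB2.2* and chr3:10255706-10255905 (plus strand) for *LHCB2.3*. Capitals mark matches, on either strand, to CCAAT, to CACGTG (the G-box of light-responsive genes) and to AATATCT (the core of the evening element).
LHCB2.1: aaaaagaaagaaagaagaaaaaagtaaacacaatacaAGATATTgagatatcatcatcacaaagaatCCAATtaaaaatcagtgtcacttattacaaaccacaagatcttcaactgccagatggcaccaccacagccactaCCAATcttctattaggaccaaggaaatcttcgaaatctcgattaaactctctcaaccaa
LHCB2.2: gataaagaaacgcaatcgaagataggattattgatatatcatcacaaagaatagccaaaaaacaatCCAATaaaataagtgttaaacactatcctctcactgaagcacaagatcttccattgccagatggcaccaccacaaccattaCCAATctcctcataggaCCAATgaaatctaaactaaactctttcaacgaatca
LHCB2.3: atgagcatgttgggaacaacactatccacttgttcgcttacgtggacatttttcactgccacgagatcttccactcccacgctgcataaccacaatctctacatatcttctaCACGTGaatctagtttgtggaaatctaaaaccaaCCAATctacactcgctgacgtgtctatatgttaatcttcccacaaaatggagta
CCAAT was found in all 3, in 15 of the 17 antenna genes (88.2%) and in 23 of the 39 members (59.0%), beside 39.6% of 27443 protein-coding genes with windows of the same length. CACGTG was found in *LHCB2.3* among these and in 8 members (20.5%), beside 5.64% of all, and included both *PSBQ1* and *PSBQ2*, which moved in opposite directions between the replicate sets. GATAAG, the I-box of light-regulated genes, was in 8 members (20.5%), beside 9.97% of all, and AATATCT in 3 (7.69%), beside 8.11%. AAAAATCT, the core bound by CCA1, was in 5 members (12.8%), among them *LHCB1.1* and *LHCB1.4*, beside 5.22%, and TATAAA in 14 (35.9%), beside 41.0%. A match describes the letters only, and binding was not measured.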

How the data were processed

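The authors mapped reads to TAIR10 (TopHat2 2.0.12 and Cufflinks 2.0.1 in the submitters' processing notes, where Bowtie and Cuffdiff are named as well) and kept uniquely mapped reads. The deposited FPKM values, computed by the authors per gene and library, hold no counts, so the reads behind a value are unknown here and no counting interval is given. The study's read summary lists mapped reads per library, and they entered no calculation here. FPKM depends on the transcript lengths used and on the total of each library.

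Rows with a mean of at least 0.1 FPKM were tested as log2(FPKM + 0.1) with limma 3.58.1 (R 4.3.3), with 4 genotype means, trended moderation, two-sided tests and Benjamini-Hochberg adjustment over all rows. The limits of the study (P under 0.01 and a log2 difference beyond 1) were a further rule. A 0 in a row whose other values had a median of at least 10 FPKM was taken as missing, which touched 1823 values in 216 rows, mostly small RNA genes, and 1 member.

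Same-numbered libraries deviated together from their genotype means (correlation 0.506 to 0.835 over 22429 rows and 18 pairs, and -0.262 on average between numbers). The replicate difference described above would by itself give correlations of these signs. The averages therefore cannot show whether the numbers also pair the libraries within the replicates that lay close together, and this was not tested. The block is printed where it changed a call. The labels do not say what a number shares.

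Members, lists and tests were chosen with earlier results of these data known. Values are given in each library for members listed at 0, those with a genotype call and the extremes of each genotype comparison, and as ranges in the 2 replicate sets for family extremes. Since each testable member passed the replicate comparison, the others are given as means and counts, and genes of other lists were named, at most 4 a list, by the size of their difference. *LHCB2.1* and *LHCB1.1* were added to the genotype results once their values had been seen. Simulated data with known changes were used to check the fit. They held no replicate effect, and the fit with the block was not checked in this way. Sequences and positions are from RefSeq TAIR10.1, whose locus names match. Python 3.11.15, Biopython 1.88 and matplotlib served for the rest. Alternatives were other pseudocounts (1, 0.01), filters, scaling, zero rules and moderation, the block, single comparisons, the mean of replicates 2 and 3 as 1 sample, and leaving out each replicate.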

Additional observations from a re-analysis of the deposited data

Results flagged for a closer look

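For *LHCB1.4* and *LHCB4.2* the 3 replicates of *brat1* against the wild type all moved one way and the 3 of *brat1nrpe1* against *nrpe1* all the other way. Of all rows, 18.4% were lower and 19.8% higher in all 3 replicates of *brat1*, and 20.3% and 21.2% in *brat1nrpe1* against *nrpe1*. The share of all rows with opposite signs in both was not counted, so these genes were not shown to exceed the background. *LHCB1.4* had 3784, 1228 and 1184 FPKM in the wild type, 4119, 1297 and 1303 in *brat1*, 4869, 1208 and 1244 in *nrpe1*, and 3867, 1139 and 1148 in *brat1nrpe1*. Its log2 differences were 0.12, 0.078 and 0.14 for *brat1* and -0.33, -0.085 and -0.12 for the double mutant, and the difference between the effects was -0.29 (limma adjusted p = 0.9999, and 0.436 with the block on replicate numbers). *LHCB4.2*, a linker antenna protein, had 2120, 2506 and 2417 FPKM in the wild type, 2226, 2653 and 2667 in *brat1*, 2339, 2664 and 2591 in *nrpe1*, and 2160, 2485 and 2541 in *brat1nrpe1*. Its log2 differences were 0.070, 0.082 and 0.14 against -0.11, -0.10 and -0.028, with a difference of -0.18 (limma adjusted p = 0.9999, and 0.275 with the block). Neither difference passed the threshold in the fit of all libraries, while both did without replicate 1 (limma adjusted p = 0.0144 and 0.0296). The genes were picked by these opposite signs in the same libraries, so the result without replicate 1 is no separate support.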

How the results depend on the processing

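In the comparison of replicate 1 with the others, 38 members were called, 37 without replicate 2 and 37 without replicate 3, 39 with the zeros of *LHCB1.3* kept as deposited, and 38 under each other alternative. Rescaling all libraries to the same 75th percentile moved the members' median there from 0.23 to 0.20 on the log2 scale. For the genotypes the count of members called was 0 without a block. With the replicate block it was 3 in *brat1nrpe1* against *nrpe1* and 2 in *brat1nrpe1* against the wild type, and the block changed no other call of a member. Leaving out each replicate in turn gave 0 to 3 members in *brat1*, 0 to 5 in *nrpe1*, 0 to 15 in *brat1nrpe1* against *nrpe1*, 0 to 7 against the wild type and 0 to 4 for the difference of the *brat1* effect. The highest count came without replicate 1 each time, and 0 members were called without replicate 2 or without replicate 3. *LHCB2.2* in *nrpe1* against the wild type turned from 0.011 to -0.032 without replicate 1 (range -0.032 to 0.053 with each replicate left out), with no call in any. The members' share of summed FPKM was 15.25% without replicate 1, beside 14.78% with the zeros of *LHCB1.3* counted.

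Over all rows, the calls depended on the setting far more, from 0 to 308 lower and 0 to 407 higher in *brat1* (9 and 2 in the fit reported), from 0 to 729 and 4 to 898 in *nrpe1* (19 and 59), from 0 to 1170 and 0 to 1235 in *brat1nrpe1* against *nrpe1* (22 and 8), from 0 to 1212 and 0 to 1394 in *brat1nrpe1* against the wild type (33 and 34) and from 0 to 385 and 0 to 316 for the difference between backgrounds (4 and 1). The rule on zeros limited to rows with at most 4 zeros, chosen after seeing the data, touched 3 rows and left the counts of members as they were. The cause of the division by replicate number was not tested, and with 3 libraries a genotype, changes of the size seen here could be called only with the block or within replicates 2 and 3.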
